A study of Mus musculus with 16 samples.

Results

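The Serpina1 and Serpina3 genes encode serpins that the liver secretes into the blood, and 10 members of this clade, of 23420 gene symbols with read counts, were followed in the livers of mice fed a high-fat diet with or without fenretinide. The members were listed by name: the 5 alpha-1 antitrypsin paralogs Serpina1a, Serpina1b, Serpina1c, Serpina1d and Serpina1e, the antichymotrypsin-like Serpina3k, Serpina3m and Serpina3n, and the hormone carriers Serpina6 and Serpina7. They were selected on their levels and fold changes across these groups in earlier results of the same data, so that their levels and fold changes are given as a description, with no p-value. The livers came from 16 male mice of the C57BL/6J strain, 4 per group. Every mouse ate an HFD with 45% of energy from fat, and the FEN-HFD groups also received 0.04% fenretinide, a synthetic retinoid, in the diet. One pair of groups was fed for 7 days and the other for 20 weeks. The age of the mice is not given in the sources used here, and no label names a batch. The 7-day and 20-week mice were different animals, called cohorts here, so that duration, age and any batch cannot be told apart. At 7 days the mouse numbers of the diets also fall in separate ranges, and what the numbers stand for is not given. Lean livers were not analysed here, so that each comparison is among mice on the fatty diet.

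A serpin that inhibits presents a flexible reactive centre loop as bait to a serine protease, is cut there, and then traps the enzyme in a covalent complex. Alpha-1 antitrypsin is the main plasma inhibitor of neutrophil elastase, and mice carry several copies of its gene whose products differ in this loop, whereas people carry 1. The Serpina3 genes are likewise a mouse expansion of a single human gene, that of alpha-1 antichymotrypsin, an acute-phase protein. Serpina6 encodes corticosteroid-binding globulin and Serpina7 thyroxine-binding globulin, which have the serpin fold but carry hormones and do not inhibit proteases.

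The Serpina1 genes are so alike that reads cannot always be placed. Their coding sequences, compared over 1239 aligned bases of the GENCODE transcripts of GRCm38, were 96.3% to 98.5% identical, with 86 variable positions. The 60-base coding window with the most variable positions, 18 in all, is shown because it tells the 5 copies apart and because it lies in the stretch that encodes the reactive centre loop. It covers coding bases 1170 to 1229 of the Serpina1a transcript and 1101 to 1160 of the others. Capitals mark the bases that differ among the copies, and each line runs 5′ to 3′ on the coding strand.
Serpina1a: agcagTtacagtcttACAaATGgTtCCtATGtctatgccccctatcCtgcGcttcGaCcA
Serpina1b: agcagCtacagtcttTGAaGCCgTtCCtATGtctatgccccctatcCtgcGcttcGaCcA
Serpina1c: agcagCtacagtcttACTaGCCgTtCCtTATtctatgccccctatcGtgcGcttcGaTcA
Serpina1d: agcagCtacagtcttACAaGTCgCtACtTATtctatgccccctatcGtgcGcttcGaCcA
Serpina1e: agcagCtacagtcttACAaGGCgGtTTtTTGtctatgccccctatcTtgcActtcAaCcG
Outside such windows the copies share stretches of sequence, to differing degrees. The study read both ends of each fragment over 75 bases, and the shares that follow take each 75-base window of a transcript alone. Serpina1e shared 24.2% of its windows with another gene. The share was 32.9% for Serpina1b, 37.1% for Serpina1d, 57.5% for Serpina1a and 66.1% for Serpina1c. It was 7.36% for Serpina3k, 9.65% for Serpina3m and 1.46% for Serpina3n, and 0% for Serpina6 and Serpina7. How the study's counting treated reads that fit several copies is not given in the sources used here. Each Serpina1 level is therefore uncertain on its own, and the sum of the 5 copies is given beside it. The sum does not depend on how reads were split among the copies, but it does on whether shared reads were dropped. Dropping them would take more from Serpina1c and Serpina1a than from Serpina1e. The order of the copies and the share of each in the sum have the same limit.

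The 5 Serpina1 genes lie side by side on the minus strand of chromosome 12 (GRCm38), all within 230.8 kb. By RefSeq, Serpina1b spans 103728156 to 103738189, Serpina1d 103763587 to 103773633, Serpina1a 103853295 to 103863619, Serpina1c 103894926 to 103904950 and Serpina1e 103946931 to 103956897. Serpina6 lies before them at 103646630 to 103657218, and the Serpina3 genes follow on the plus strand, Serpina3k at 104338486 to 104345739, Serpina3m at 104387157 to 104394259 and Serpina3n at 104406646 to 104414334. Serpina7 stands alone on the X chromosome at 139079249 to 139085236. In the GENCODE annotation a gene model of Serpina1b runs on over Serpina1d, and Serpina1c has an antisense neighbour. The span of Serpina3m there starts at the same base as Serpina3k and covers it. The strand setting of the counting is not stated, so that reads in these overlaps are uncertain.

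RefSeq's table of start sites for GRCm38.p6 held a window for 7 of the 10 members, without Serpina3k, Serpina3m and Serpina6. Each window has 300 bases, 250 before the start and 50 after it, and motifs were searched over all of it. The 250 bases before the start are printed for Serpina1e and Serpina7, the members whose levels moved most, and for Serpina1b, a copy that stayed nearer its level. All are on the minus strand, at chr12:103956898-103957147 for Serpina1e, chr12:103738190-103738439 for Serpina1b and chrX:139085237-139085486 for Serpina7, and capitals mark TTGCNNAA, searched on either strand as a motif of C/EBP factors.
Serpina1e: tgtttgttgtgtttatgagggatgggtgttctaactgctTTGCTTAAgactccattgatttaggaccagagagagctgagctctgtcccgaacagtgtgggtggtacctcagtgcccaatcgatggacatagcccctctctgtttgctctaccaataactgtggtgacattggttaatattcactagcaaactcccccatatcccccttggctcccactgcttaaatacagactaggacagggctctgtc
Serpina1b: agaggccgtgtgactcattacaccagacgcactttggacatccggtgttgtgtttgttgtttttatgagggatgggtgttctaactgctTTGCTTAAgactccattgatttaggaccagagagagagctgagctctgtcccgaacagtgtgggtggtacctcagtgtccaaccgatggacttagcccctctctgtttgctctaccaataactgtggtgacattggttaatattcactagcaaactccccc
Serpina7: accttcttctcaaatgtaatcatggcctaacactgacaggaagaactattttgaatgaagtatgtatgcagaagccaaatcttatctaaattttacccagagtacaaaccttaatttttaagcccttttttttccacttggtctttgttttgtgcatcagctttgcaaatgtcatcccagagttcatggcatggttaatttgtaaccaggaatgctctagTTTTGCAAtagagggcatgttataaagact
TTGCNNAA was found in the windows of Serpina1a, Serpina1b, Serpina1d, Serpina1e and Serpina7, and in 10.8% of 32841 promoter windows of the same length. In Serpina1b, Serpina1d and Serpina1e it was the same site in a stretch that these copies share. In Serpina1a it lay at another place, in the 50 bases after the RefSeq start. The GENCODE gene model of Serpina1a begins further on, at 103863562, so that by that annotation the site lies before the start. Matches in such similar copies are not separate finds to set against that percentage. In the part of the windows that aligned, 248 bases, Serpina1e and Serpina1b were 98.4% identical. The motif match is a description of these letters and not of binding. The letters TTCNNNGAA, searched as a STAT5 motif and present in 8.3% of all windows, were in none of the 7 members' windows, and AGGTCA, searched for nuclear receptors and present in 16.3%, was not found in them either.

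Levels are in CPM, counts relative to library size, with sizes adjusted over all 16 libraries by the trimmed mean of M-values (TMM), and where genes are compared with each other they are divided by transcript length (RPKM). Libraries held 19218230 to 32546829 counts, of which the members made up 1.08% to 4.06%. Hepatocyte markers dominated every liver, with 7 of 8 listed markers in the table and a summed level of 55879 to 84100 CPM. Markers of pancreatic acinar cells summed to at most 0.636 CPM in any library. Cyp26a1, a retinoid-induced gene, was at 213 to 318 CPM in the 8 FEN-HFD mice and at 1.10 to 8.68 CPM in the 8 HFD mice. Libraries from 2 mice stood apart. In FEN-HFD mouse 29 at 20 weeks, ribosomal precursor RNA (Rn45s) took 53.1% of counts, against 0.466% to 1.46% in the others, and its summed Kupffer cell and neutrophil markers reached 858 and 50.3 CPM. In HFD mouse 143 at 7 days the Kupffer cell markers summed to 826 CPM. In the other 14 libraries these sums were at 289 to 526 CPM for Kupffer cells and at most 9.13 CPM for neutrophils. Beside each member's fold change, the value without these mice is given where it moved by over 1.5 times, changed sign or changed a call.

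Per kilobase, Serpina3k was the most abundant member in every group, at 7980 ± 1107 RPKM (SD, n = 4) in HFD mice at 7 days. Serpina1e came next in that group at 5176 ± 2001 RPKM (SD, n = 4), followed by Serpina1b, Serpina1c, Serpina1d and Serpina1a at 1094 ± 176 RPKM (SD, n = 4). Of these neighbours in the order, only Serpina1d and Serpina1a had ranges over mice that did not overlap. Serpina3m, Serpina3n and Serpina6 were an order of magnitude lower, between 99.6 and 159 RPKM, and Serpina7 was lowest at 6.77 ± 1.61 RPKM (SD, n = 4). FEN-HFD mice at 7 days had the same order. In HFD mice at 20 weeks Serpina1e ranked seventh, at 248 ± 157 RPKM (SD, n = 4), with a range that overlapped those of Serpina3m above it and Serpina3n below it. In FEN-HFD mice at 20 weeks it was again in the second place, at 3469 ± 931 RPKM (SD, n = 4), and its range overlapped those of Serpina3k and Serpina1b. The other 9 members kept their order in all 4 groups.

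Serpina1e, one of the alpha-1 antitrypsin copies, varied most among the members. After 7 days it was at 9745, 4849, 7947 and 4271 CPM in the HFD mice (6703 ± 2592, SD, n = 4) and at 8801, 7049, 9468 and 7403 CPM in the FEN-HFD mice (8180 ± 1144, SD, n = 4). After 20 weeks it was at 517, 465, 213 and 89.9 CPM in the HFD mice (321 ± 203, SD, n = 4). In the FEN-HFD mice it was at 6183, 4168, 3327 and 4292 CPM (4492 ± 1206, SD, n = 4), where the first value is that of mouse 29. Every HFD liver at 20 weeks thus lay far below every other liver, and the 7-day groups overlapped. The Kupffer cell markers, 6 of 7 of them in the table and all detected, also summed to less in those mice, 289 to 352 CPM against 368 to 858 CPM in the other groups, and their part in the values of Serpina1e was not tested. Between the diets at 20 weeks, the hepatocyte markers summed to 72546 to 83753 CPM in HFD mice and to 55879 to 66867 CPM in FEN-HFD mice, with no overlap. Alb, at means of 51060 and 34665 CPM, was the largest part of these sums. Ttr was also lower with fenretinide, whereas mean Apoa1 rose from 4526 to 5915 CPM and mean Asgr1 from 501 to 528 CPM. Over the 7 markers the median log2 fold change was 0.07. By unadjusted p below 0.05 in edgeR, 1 was higher and 3 were lower. The part of these markers in the values of the members was not tested. At 7 days the hepatocyte sums were at 66727 to 84100 CPM in HFD mice and at 62032 to 70742 CPM in FEN-HFD mice. They overlapped through HFD mouse 143 alone, at 66727 CPM, with HFD mice 146, 144 and 142 at 81490, 83510 and 84100 CPM. Of these 7 markers, 0 were higher and 3 lower at 7 days by unadjusted p below 0.05 in edgeR (median log2 fold change -0.13). In bulk tissue, fewer cells that express a gene and less of its RNA per cell cannot be told apart.

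**Figure D1:**
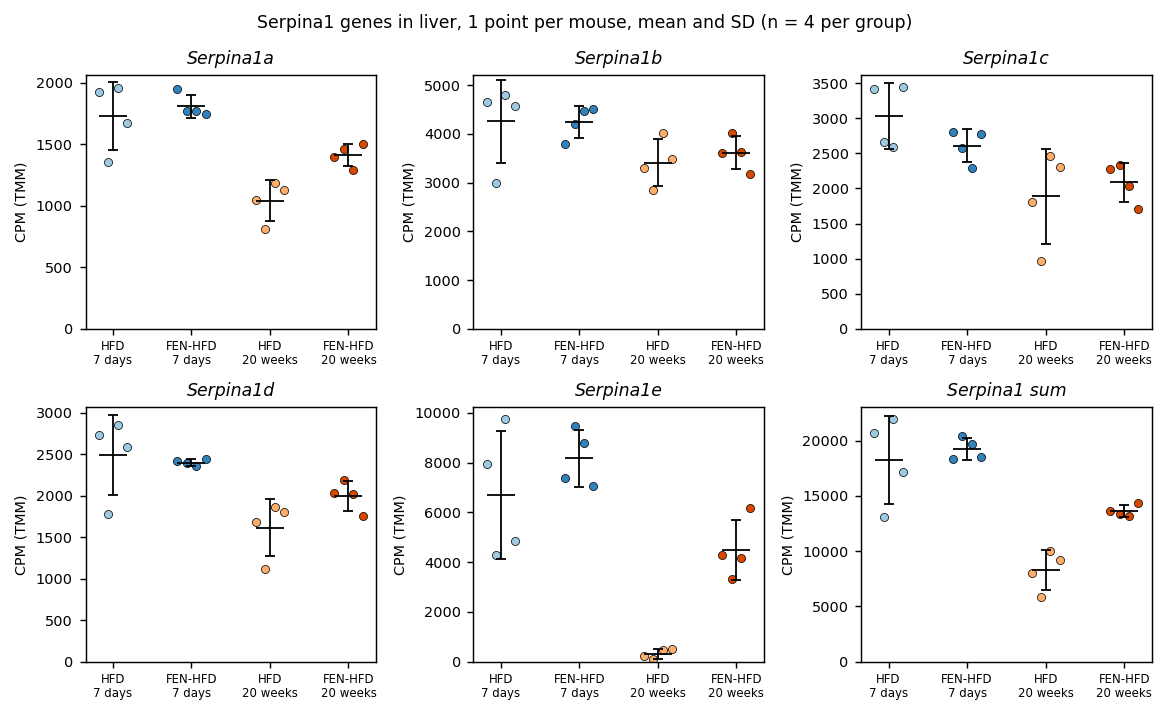
Levels of the 5 Serpina1 genes and of their sum in CPM (y axis, from 0) for each mouse (points) in the 4 groups (x axis), with the mean and SD of 4 mice. Serpina1e lies between 89.9 and 517 CPM in the HFD mice at 20 weeks and at 3327 to 9745 CPM in the other 12 mice, while Serpina1b, Serpina1c and Serpina1d overlap between the diets at 20 weeks.

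Between FEN-HFD and HFD at 20 weeks, Serpina1e was 14.0-fold higher with fenretinide (log2 fold change 3.81, standard error 0.54). Without mouse 29 the log2 fold change was 3.62 (standard error 0.62). Its copies differed far less between the diets. Serpina1a was at 1126, 1183, 1046 and 808 CPM in the HFD mice and at 1504, 1295, 1461 and 1398 CPM in the FEN-HFD mice. The groups did not overlap, with a log2 fold change of 0.44 (standard error 0.14). Serpina1b was at 3411 ± 482 CPM on the HFD and 3610 ± 342 CPM with fenretinide (SD, n = 4 each; log2 fold change 0.08, standard error 0.14). Serpina1c was at 1886 ± 671 and 2088 ± 281 CPM (SD, n = 4 each), with a log2 fold change of 0.15 (standard error 0.26), and Serpina1d at 1615 ± 345 and 1999 ± 179 CPM (SD, n = 4 each), with a log2 fold change of 0.31 (standard error 0.17). Without mouse 29 the log2 fold changes of Serpina1b and Serpina1c were 0.14 (standard error 0.14) and 0.23 (standard error 0.28). The levels of Serpina1b, Serpina1c and Serpina1d overlapped between the diets.

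The sum of the 5 Serpina1 genes was 8275 ± 1815 CPM on the HFD and 13604 ± 523 CPM with fenretinide at 20 weeks (SD, n = 4 each), a log2 fold change of 0.72 (standard error 0.18), and no FEN-HFD mouse was as low as the highest HFD mouse. Serpina1e made up 78.3% of the difference between these means. With Serpina1e left out of the sum, a choice made after the data were seen, the log2 fold change was 0.20 (standard error 0.17). The share of Serpina1e in the Serpina1 counts was 5.60%, 4.65%, 2.65% and 1.54% in the HFD mice and 43.1%, 31.7%, 25.0% and 31.6% in the FEN-HFD mice. These shares do not depend on the scaling of the libraries, but they do on how reads that fit several copies were counted. They were 28.3% to 44.4% in HFD mice and 38.1% to 46.4% in FEN-HFD mice at 7 days. The HFD livers at 20 weeks were the only ones, of the 16, in which Serpina1e held the smallest share. Serpina1b was then the largest, at 37.8% to 48.9% of the counts. Serpina1b was also the largest in FEN-HFD mouse 22 at 20 weeks, at 30.1% beside 25.0% for Serpina1e.

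**Figure D2:**
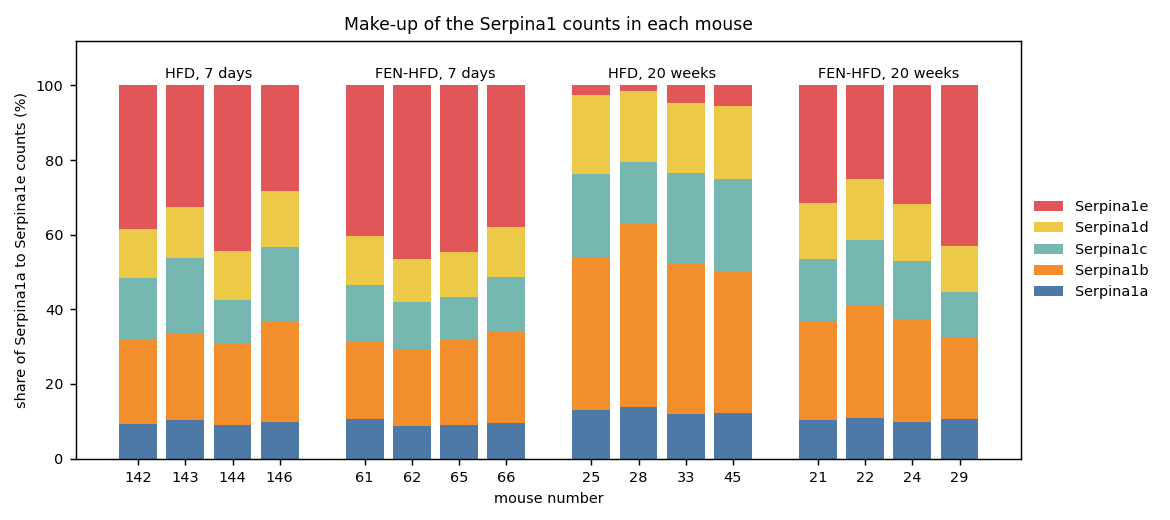
Share of the summed Serpina1a to Serpina1e counts (y axis, %) held by each gene, stacked to 100% for each mouse (x axis, by mouse number) in the 4 groups. The top segment, Serpina1e, takes 1.54% to 5.60% in the HFD mice at 20 weeks and 25.0% to 46.4% in the other 12 mice.

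The antichymotrypsin-like genes, which code for inhibitors of chymotrypsin- and kallikrein-type proteases, had smaller fold changes. Serpina3k was at 9239, 9833, 5382 and 3070 CPM in the HFD mice at 20 weeks and at 6485, 14177, 11776 and 10264 CPM in the FEN-HFD mice. Mouse 29 held the lowest of the FEN-HFD values, and it was the only one within the HFD range. The log2 fold change was 0.63 (standard error 0.37) with mouse 29 and 0.81 (standard error 0.38) without it. Serpina3m was at 416 ± 92.9 and 386 ± 27.6 CPM (SD, n = 4 each) and a log2 fold change of -0.11 (standard error 0.15). Serpina3n, an acute-phase inhibitor, had 246 ± 39.9 and 308 ± 62.9 CPM (SD, n = 4 each), and its log2 fold change of 0.33 (standard error 0.17) went to 0.19 (standard error 0.14) without mouse 29. Both of these genes overlapped between the diets.

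Of the hormone carriers, Serpina6 was at 189 ± 22.3 CPM on the HFD and 198 ± 61.3 CPM with fenretinide (SD, n = 4 each), and its log2 fold change turned from 0.06 (standard error 0.20) to -0.16 (standard error 0.12) without mouse 29. Serpina7, the thyroxine carrier, was at 83.1, 140, 235 and 195 CPM in the HFD mice and at 83.5, 103, 89.1 and 129 CPM in the FEN-HFD mice. These overlapped, with 3 of the 4 HFD mice above every FEN-HFD mouse, and the log2 fold change was -0.69 (standard error 0.29).

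**Figure D3:**
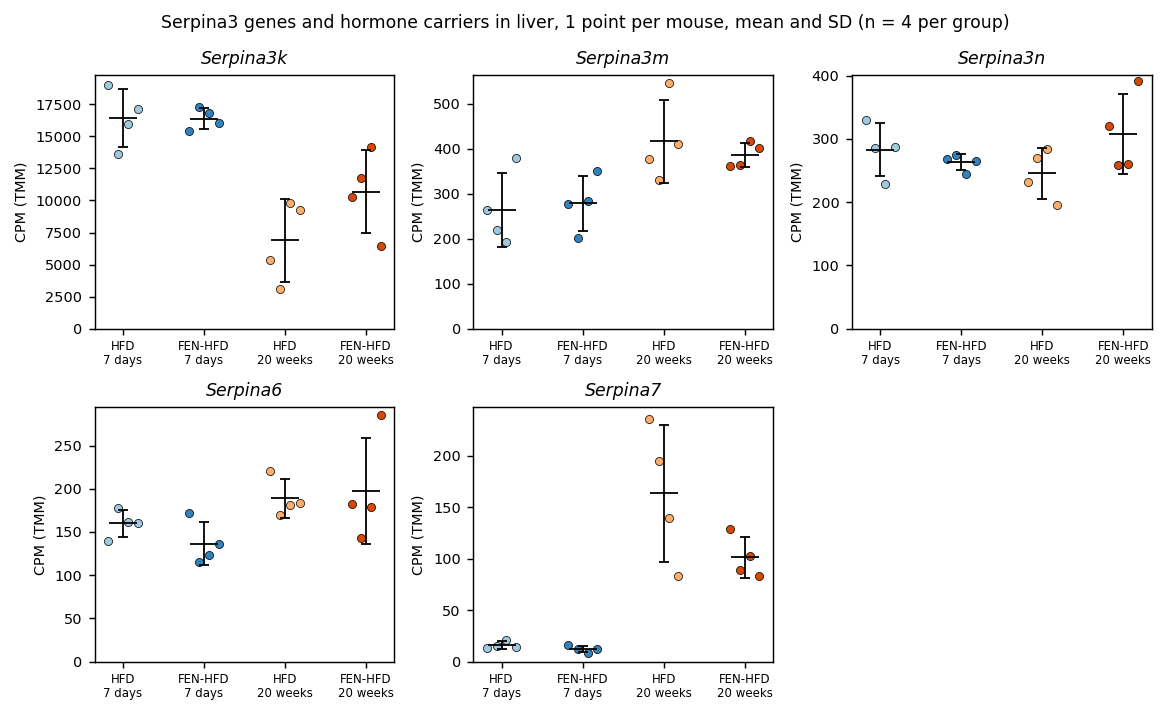
Levels of Serpina3k, Serpina3m, Serpina3n, Serpina6 and Serpina7 in CPM (y axes, from 0) for each mouse (points) in the 4 groups (x axes), with the mean and SD of 4 mice. Serpina7 is at 8.68 to 21.3 CPM in all mice at 7 days and at 83.1 to 235 CPM in all mice at 20 weeks, and Serpina3k is lowest in the HFD mice at 20 weeks and in FEN-HFD mouse 29.

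A gene is called here when edgeR's quasi-likelihood test gives an adjusted p under 0.05 (Benjamini-Hochberg) over all genes tested. All 10 members passed the filter on low counts in every comparison. Between the diets at 20 weeks, 1 of the 10, Serpina1e, was called, against 1.86% of 13010 genes tested. The groups did not overlap for 2 members, Serpina1a and Serpina1e, against 12.8% of all genes. The median log2 fold change was 0.23 over the members and 0.01 over all genes. The members were chosen with this contrast known, so that nothing is read from these counts. The call of Serpina1e held in 14 of 16 alternatives and was lost when HFD mouse 25 (log2 fold change 3.65) or FEN-HFD mouse 21 (3.83) was left out.

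After 7 days the diets differed little in any member. The log2 fold changes of FEN-HFD against HFD ran from -0.36 for Serpina7 (standard error 0.21) to 0.29 for Serpina1e (standard error 0.25). That of the Serpina1 sum was 0.08 (standard error 0.17), and that of Serpina3k was 0.00 (standard error 0.13). Without HFD mouse 143 the log2 fold change of Serpina1e was 0.12 (standard error 0.22) and that of the Serpina1 sum turned to -0.05 (standard error 0.12). Those of Serpina1a, which had been 0.07, and of Serpina3k turned to -0.03 and -0.08. Serpina1b and Serpina1d went from 0.00 and -0.05 to -0.14 and -0.18, and Serpina3m from 0.08 to 0.00. None of the members was called and the groups overlapped for all 10, against 0.0988% of genes called and 3.26% without overlap among 13157 tested. No member was called by DESeq2 or limma-voom either. The difference between the 20-week and the 7-day effect of fenretinide was 3.52 on the log2 scale for Serpina1e (standard error 0.60) and 0.64 for the Serpina1 sum (standard error 0.24). In the fit of all 16 libraries by edgeR 0 members were called for this difference, against 0.0299% of 13387 genes, and 1, Serpina1e, was called by DESeq2, by limma-voom and with upper-quartile factors. The call also appeared when HFD mouse 45 (3.84) or HFD mouse 28 (3.21) was left out.

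The largest changes in the HFD mice set the 20-week against the 7-day cohort, comparisons that share their HFD groups with those above. Serpina1e was 21.1-fold lower after 20 weeks (log2 fold change -4.40, standard error 0.60, and -4.56 without mouse 143). Serpina1a went from 1729 ± 278 to 1041 ± 165 CPM (SD, n = 4 each), a log2 fold change of -0.75 (standard error 0.16), with no overlap. Serpina1d, Serpina1c and Serpina1b had log2 fold changes of -0.64, -0.70 and -0.33 (standard errors 0.19, 0.26 and 0.17). The Serpina1 sum went from 18211 ± 3984 to 8275 ± 1815 CPM (SD, n = 4 each), with a log2 fold change of -1.15 (standard error 0.21), and Serpina1e made up 64.2% of that difference. Without Serpina1e, the log2 fold change of the sum was -0.55 (standard error 0.18). All 5 copies were thus lower on average in the 20-week HFD mice, Serpina1e by far the most.

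Serpina3k was at 15927, 17122, 19025 and 13588 CPM in the HFD mice at 7 days, and every HFD mouse at 20 weeks was below these (log2 fold change -1.27, standard error 0.33). Serpina7 ran the other way. It was at 21.3, 13.7, 13.1 and 15.1 CPM in HFD mice at 7 days and at 8.68, 11.8, 12.4 and 16.4 CPM in FEN-HFD mice at 7 days, so that each of the 8 mice of the 20-week cohorts was above all 8 of the 7-day ones. It was 10.3-fold higher at 20 weeks on the HFD (log2 fold change 3.36, standard error 0.34) and 8.16-fold higher on FEN-HFD (3.03, standard error 0.21). Fat cell markers also summed to more in the 20-week livers, 6.14 to 145 CPM for the 4 listed against 0.129 to 5.30 CPM at 7 days, with Adipoq and Plin1 at 0 and Lep at no more than 0.104 CPM in the FEN-HFD mice. Cfd, which encodes the complement protease adipsin, made up nearly all of the sum in those mice, at 55.0 to 144 CPM, and was at 0.429 to 5.14 CPM in FEN-HFD mice at 7 days. In HFD mice it was at 6.05 to 24.3 CPM at 20 weeks and 0.0645 to 1.35 CPM at 7 days. The part of these markers in the values of Serpina7 was not tested. Serpina6, the other hormone carrier, had log2 fold changes of 0.23 (standard error 0.11) and 0.52 (standard error 0.20), the latter 0.29 without mouse 29. Serpina3m was at 264 ± 82.1 CPM in HFD mice at 7 days and had log2 fold changes of 0.64 (standard error 0.22) on the HFD and 0.46 (standard error 0.15) on FEN-HFD. Those of Serpina3n were -0.22 (standard error 0.15) and 0.21 (standard error 0.14), the latter 0.07 (standard error 0.10) without mouse 29.

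In the FEN-HFD mice, Serpina1e at 20 weeks was lower than at 7 days with no overlap (log2 fold change -0.87, standard error 0.20, and -1.07 without mouse 29), beside -4.40 on the HFD alone. The Serpina1 sum went from 19243 ± 974 to 13604 ± 523 CPM (SD, n = 4 each), with a log2 fold change of -0.51 (standard error 0.12). For Serpina3k it was -0.63 (standard error 0.21), or -0.45 (standard error 0.13) without mouse 29, and for Serpina1a -0.37 (standard error 0.10). The same 4 mice on FEN-HFD at 20 weeks enter the comparison of the diets.

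Between the HFD cohorts 4 members were called. Serpina1a, Serpina1e and Serpina3k were lower and Serpina7 was higher, against 7.51% of 13255 genes called in either direction. Groups did not overlap for 5 members, against 17.1% of genes. Serpina1d was also called without mouse 143 (log2 fold change -0.77) and Serpina3m without HFD mouse 146 (0.87). Between the FEN-HFD cohorts Serpina7 was called, against 1.18% of 12949 genes, and 6 members did not overlap (Serpina1a, Serpina1d, Serpina1e and Serpina3k lower, Serpina3m and Serpina7 higher), against 6.57% of genes. Without mouse 29, Serpina1a (log2 fold change -0.40), Serpina1e (-1.07) and the Serpina1 sum (-0.54) were called as well, and the genes called by edgeR went from 153 to 486. The calls of Serpina1e and Serpina7 on the HFD, and of Serpina7 on FEN-HFD, held in all 16 alternatives. That of Serpina1a was lost without HFD mouse 25, 144 or 142 (log2 fold changes -0.75, -0.68 and -0.69). That of Serpina3k held in 8 of 16. It was lost with RLE factors, with no filter beyond at least 1 count and without any of HFD mice 45, 25, 144, 146, 142 or 143, where its log2 fold change ran from -1.43 to -1.17.

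**Figure D4:**
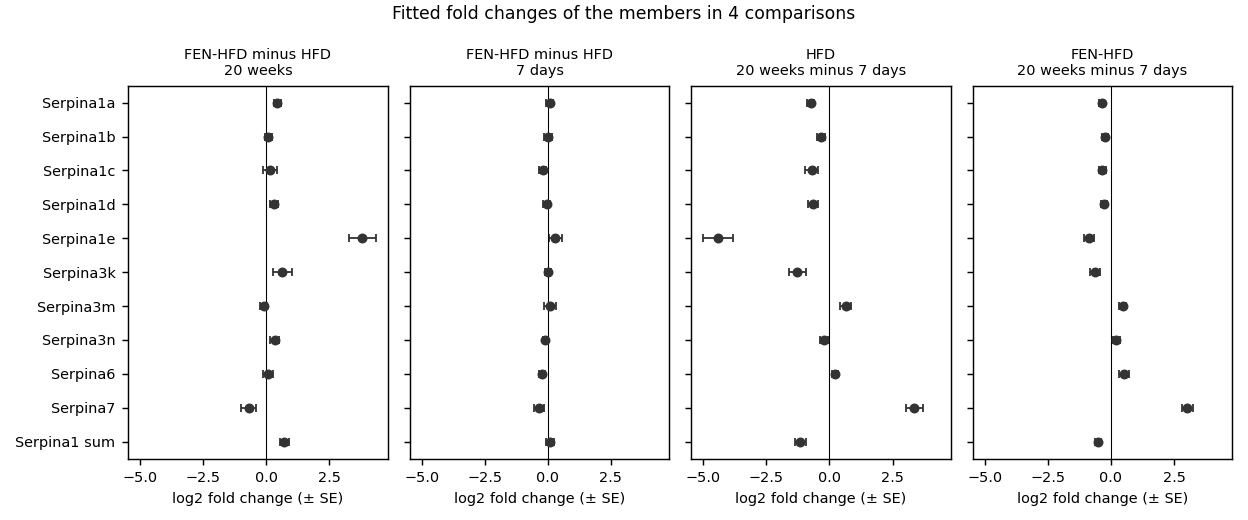
Fitted log2 fold changes (x axes) with standard errors of the 10 members and of the Serpina1 sum (y axis) in 4 comparisons of 4 mice with 4. Serpina1e stands at 3.81 for the diets and -4.40 for the HFD cohorts, Serpina7 at 3.36 and 3.03 for the cohorts, and all values for the diets at 7 days lie between -0.36 and 0.29.

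Along chromosome 12, the members lie among other Serpina genes. Among 24 rows of Serpina genes in this cluster, 16 were tested in both the comparison of the diets at 20 weeks and that of the HFD cohorts. Serpina11, the neighbour of Serpina1e, was at 97.3 ± 11.4 CPM in HFD mice at 7 days and fell to 47.9 ± 10.1 CPM at 20 weeks (SD, n = 4 each), by 1.04 on the log2 scale (edgeR adjusted p = 0.00569). Serpina9, a serpin of germinal centre B cells that follows, was at 5.15 ± 2.25 CPM and fell to 0.280 ± 0.338 CPM (SD, n = 4 each), by 4.25 on the log2 scale (edgeR adjusted p = 0.0105). Both had higher mean values with fenretinide at 20 weeks and did not pass there (log2 fold changes 0.65 and 2.10, edgeR adjusted p = 0.126 and 0.165). Serpina12, named as the next gene, had log2 fold changes near 0, at 0.04 for the HFD cohorts and -0.08 for the diets (edgeR adjusted p = 0.967 and 0.924).

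**Figure D5:**
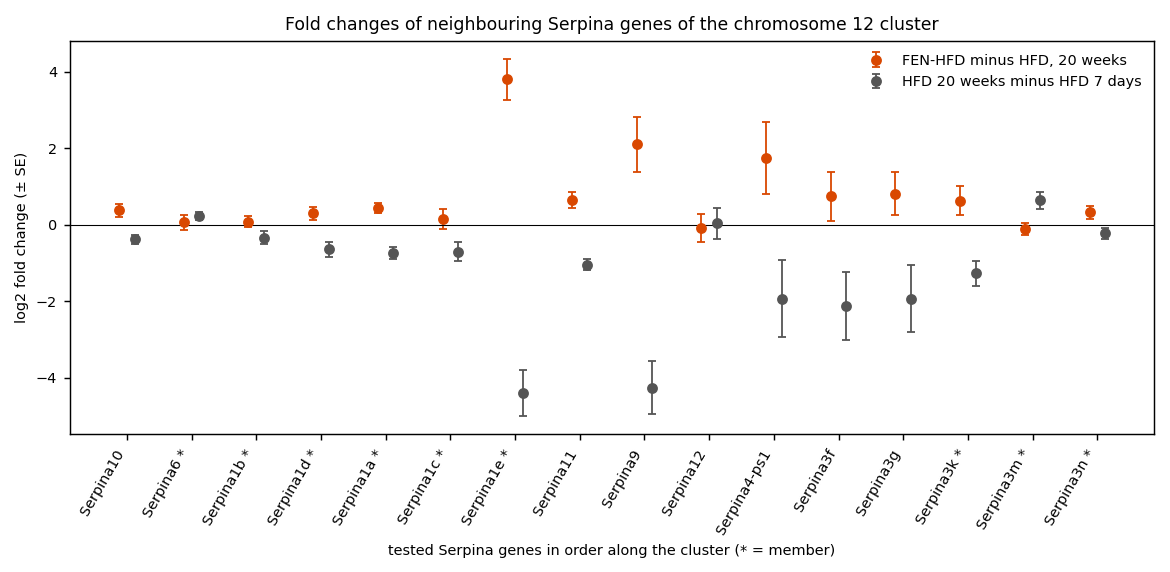
Log2 fold changes with standard errors (y axis) of the 16 Serpina genes tested in both comparisons, in their order along chromosome 12 (x axis, not to scale, members starred), for the diets at 20 weeks (orange) and for the HFD cohorts (grey). Serpina1e and Serpina9 have the largest values, -4.40 and -4.25 for the HFD cohorts, and the copies between Serpina6 and Serpina1e lie within 0.75 of 0.

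The other serpins, the proteases that serpins inhibit, and the pathways around the members were followed in lists. Between the diets at 20 weeks edgeR called 100 of 13010 genes higher and 142 lower. By unadjusted p below 0.05, 1106 were higher and 1307 lower there, by DESeq2 424 and 587, and by limma-voom 484 and 644. Between the diets at 7 days edgeR called 13 of 13157 higher and 0 lower, with 346 and 323 by unadjusted p below 0.05. For the HFD cohorts edgeR called 634 of 13255 genes higher and 362 lower, 7.51% in all. By unadjusted p below 0.05, 1762 were higher and 1612 lower. DESeq2 called 1065 higher and 699 lower there, and limma-voom 763 and 505. For the FEN-HFD cohorts edgeR called 110 of 12949 genes higher and 43 lower, with 781 and 470 by unadjusted p below 0.05. DESeq2 called 256 and 148 for these cohorts, limma-voom 505 and 387, and edgeR without mouse 29 269 and 217. The lists were chosen with earlier results of these data known, so that their counts are a description. Of 30 other serpins, 20 to 23 were tested per comparison. Between the diets at 20 weeks edgeR called 0 of 20, with 6 higher and 1 lower by unadjusted p below 0.05, against 4 higher by DESeq2, and 3 higher and 2 lower by limma-voom. Their median log2 fold change was 0.35, against 0.01 over all genes. At 7 days it called 0 of 23, with 1 higher and 1 lower by unadjusted p below 0.05 and none by DESeq2 or limma-voom. In the HFD cohorts 5 of 23 fell and none rose by edgeR, with 5 higher by unadjusted p below 0.05, 3 by DESeq2 and 1 by limma-voom. Besides Serpina11 and Serpina9, those that fell were Serpinf2, the inhibitor of plasmin (log2 fold change -0.79), Serping1, the inhibitor of complement C1 (-0.62), and Serpind1, heparin cofactor II (-0.46), with edgeR adjusted p = 0.0143, 0.0383 and 0.0468. In the FEN-HFD cohorts Serpina9 fell (-1.82, edgeR adjusted p = 0.00597) and Serpine2, an inhibitor of thrombin, rose (2.38, edgeR adjusted p = 0.0230). Of the 22 tested there, 4 were higher and 4 lower by unadjusted p below 0.05, 3 and 2 by DESeq2, and 3 and 6 by limma-voom. Without mouse 29 edgeR called 2 higher and 4 lower.

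Of the proteases, edgeR called 1 of 18 tested between the diets at 20 weeks, with 7 higher by unadjusted p below 0.05, 6 higher by DESeq2, 3 higher and 1 lower by limma-voom, and 2 higher by edgeR without mouse 29. It was F11, which encodes coagulation factor XI, at 49.6 ± 9.41 CPM on the HFD and 101 ± 4.28 CPM with fenretinide (SD, n = 4 each; log2 fold change 1.02, edgeR adjusted p = 0.00806). F11 fell in the HFD cohorts (-1.59, edgeR adjusted p = 0.00133) and in the FEN-HFD cohorts (-0.89, edgeR adjusted p = 0.00180). In the HFD cohorts 7 of 18 fell and none rose by edgeR, with 1 higher by unadjusted p below 0.05, 1 by DESeq2 and 0 by limma-voom. Besides F11 they included C1ra, Plg, F7 and Klkb1, which encode complement C1r, plasminogen, factor VII and prekallikrein, with log2 fold changes of -0.71, -0.64, -0.76 and -0.65 (edgeR adjusted p = 0.00827, 0.0112, 0.0140 and 0.0143). At 7 days 0 of 18 were called between the diets by edgeR, with 1 higher by unadjusted p below 0.05 and none by DESeq2 or limma-voom.

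Serpins fold in the endoplasmic reticulum, and misfolded alpha-1 antitrypsin is broken down from there. Of 26 genes of folding and degradation, all tested, edgeR called 0 between the diets at 20 weeks, with 3 higher and 4 lower by unadjusted p below 0.05, against 3 higher and 1 lower by DESeq2 and 1 lower by limma-voom. In the HFD cohorts edgeR called 2 of the 26, both lower, against 7.51% of all genes. By unadjusted p below 0.05, 3 were higher and 5 lower, by DESeq2 2 and 3, and by limma-voom 1 and 3. Those called by edgeR were Xbp1, a factor of the unfolded protein response (log2 fold change -0.73, edgeR adjusted p = 0.0345), and Edem2, of ER-associated degradation (-0.34, edgeR adjusted p = 0.0373). Among hepatocyte transcription factors, edgeR called 0 of 22 between the diets at 20 weeks, with 4 higher and 1 lower by unadjusted p below 0.05, 1 higher and 1 lower by DESeq2 and 2 higher by limma-voom. In the HFD cohorts 3 of 23 fell, the repressor Nr0b2 (-1.28), Foxa3 (-0.96) and Nr2f2 (-0.50), and Stat5a rose (0.67), with edgeR adjusted p = 0.00181, 0.00512, 0.0448 and 0.00490.

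Among 29 genes of the acute phase and interleukin-6 signalling, edgeR called 0 between the diets at 20 weeks, while 13 were higher and 1 lower by unadjusted p below 0.05, 8 were higher by DESeq2 and 3 by limma-voom. Their median log2 fold change was 0.65, against 0.01 over all genes. In the HFD cohorts 4 of 30 fell, the interleukin-1 receptor gene Il1r1 (-1.35, edgeR adjusted p = 0.0143) and the fibrinogen genes Fga, Fgg and Fgb (-0.60, -0.61 and -0.69, edgeR adjusted p = 0.0363, 0.0373 and 0.0384). The neutrophil and Kupffer cell sums given above were higher in mouse 29, and their part in these values was not tested.

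Of 12 genes of thyroid hormone transport, uptake and response, the setting of Serpina7, edgeR called 1 between the diets at 20 weeks, which was lower, with 3 lower by unadjusted p below 0.05, by DESeq2 and by limma-voom, and 2 lower by edgeR without mouse 29. It was Me1, malic enzyme, at 238 ± 72.9 CPM on the HFD and 62.5 ± 27.4 CPM with fenretinide (SD, n = 4 each; log2 fold change -1.93, edgeR adjusted p = 0.0384). Me1 rose in the HFD cohorts (2.24, edgeR adjusted p = 0.00825), the only 1 of the 12 called there, against 7.51% of all genes. Ttr and Alb, the other carriers of thyroxine in the blood, had lower levels with fenretinide at 20 weeks with no overlap. Ttr was at 5962 to 6653 CPM on the HFD and 4269 to 4899 CPM with fenretinide (log2 fold change -0.47, edgeR adjusted p = 0.0726), and Alb at 46910 to 54167 and 28150 to 43347 CPM (-0.56, edgeR adjusted p = 0.128). Neither passed by edgeR. DESeq2 called both, with adjusted p = 4.48e-09 and 0.00354, as did limma-voom, with adjusted p = 0.0214 and 0.0231, and edgeR called Alb without mouse 29 (-0.68, adjusted p = 0.0325). At 7 days their log2 fold changes were -0.39 and -0.38 (edgeR adjusted p = 0.576 and 0.867; 0.0370 and 0.217 by DESeq2). These 2 genes had log2 fold changes of 0.08 and -0.05 in the FEN-HFD cohorts (edgeR adjusted p = 0.930 and 0.980). Of 14 genes of glucocorticoid transport and response, the setting of Serpina6, edgeR called 0 between the diets at 20 weeks, with 1 lower by unadjusted p below 0.05 and none by DESeq2 or limma-voom. Srd5a1, a steroid reductase, fell in the HFD cohorts (-0.79, edgeR adjusted p = 0.0206), the only 1 of the 14 called there, against 7.51% of all genes.

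Some of these calls in the lists were lost without a single mouse or under another setting. Those of Serpina11, Serpina9, F11, C1ra, Plg, Klkb1, Nr0b2, Foxa3, Stat5a and Me1 in the HFD cohorts held in every alternative run. Leaving out HFD mouse 25 ended the others named here, with edgeR adjusted p from 0.0509 for F7 and Il1r1 to 0.120 for Fgb, and their log2 fold changes stayed below 0 (-0.72 for F7, -1.32 for Il1r1, -0.65 for Fgb). Of these, Serpinf2, F7 and Il1r1 were lost without mouse 25 only, Srd5a1 also without mouse 144 or 142, and Serping1, Serpind1, Xbp1, Edem2, Nr2f2 and the fibrinogen genes without any of 5 or more of the mice. Serpind1 was also lost with RLE factors, with upper-quartile factors and with at least 1 count (edgeR adjusted p = 0.0570, 0.0535 and 0.0536), and Nr2f2 with upper-quartile factors (edgeR adjusted p = 0.0505). Between the diets at 20 weeks, F11 held throughout and Me1 was lost without HFD mouse 25 or 28 or FEN-HFD mouse 24, 22 or 21, with adjusted p up to 0.127 and log2 fold changes of -2.16 to -1.79, and with at least 1 count (edgeR adjusted p = 0.0772). In the FEN-HFD cohorts, Serpine2 was lost without any 1 of 7 mice, with log2 fold changes of 2.20 to 2.48, and with at least 1 count (edgeR adjusted p = 0.0628), and Serpina9 only in 1 fit of all libraries (adjusted p = 0.117).

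The genes whose levels ran most like those of 3 members were sought among 9459 genes whose mean level was 5 CPM or more, by the root mean square difference of centred log2 CPM over the 16 libraries. For Serpina1e, with an SD of 2.15, they were Selenbp2 (0.65), Ces4a (0.71) and Gpr110 (0.78). Selenbp2 had mean log2 CPM of 10.71 and 11.61 at 7 days, and of 5.58 on the HFD and 10.17 on FEN-HFD at 20 weeks. For Serpina7, with an SD of 1.70, they were the lipid droplet gene Plin4 (0.57), Lgals1 (0.64) and Cyp2a22 (0.67). Plin4 had mean log2 CPM of 1.97 and 2.28 at 7 days and of 6.26 and 5.15 at 20 weeks. Serpina3k, with an SD of 0.73, was closest to 2810007J24Rik (0.15), Chic1 (0.25) and Ttc39c (0.26). The points share libraries and group means, and the likeness is a description of these 16 mice.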

How the data were processed

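Liver RNA was sequenced on a NextSeq-500 after removal of ribosomal RNA, and the authors aligned reads to mm10 with STAR 2.0 (per the submitters' processing notes, which also name DESeq2 1.6). The values deposited by the authors are raw read counts per gene symbol, not normalized. The counting program, its annotation and its strand setting are not given in the sources used here, and paper and labels name different library kits.

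From these, genes were kept by filterByExpr, scaled by TMM and compared with the quasi-likelihood test of edgeR 4.0.16 in R 4.3.3 (glmQLFit with robust=TRUE), with Benjamini-Hochberg adjustment over all genes tested and a threshold of 0.05. Standard errors of its fold changes are the absolute log2 fold change divided by the square root of the F statistic of that test. The script was tested on simulated data. Depth ran from 19218230 to 32546829 counts per mouse. Alternatives were DESeq2 1.42.0, limma-voom (limma 3.58.1), other factors and filters, removal of Rn45s and Lars2, 1 fit of all libraries and leaving out each mouse. Members and lists were chosen with earlier results of these data known. Named are all members, and per list the genes called (at most the 5 of smallest p) or else the 2 of highest level, of which some are given. Transcripts were aligned with MAFFT 7.526. Symbols were used as listed, and 5 listed symbols were not found.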

Additional observations from a re-analysis of the deposited data

Results flagged for a closer look

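In 180 groups of 4 mice, for 45 genes, a mouse was looked for whose gap to the nearest of the others, as a share of the group's whole range, was above the critical ratio of Dixon's test. It was found 13 times, and chance alone flags about 1 in 20 groups. Of the members, Serpina1a was high in FEN-HFD mouse 61 at 7 days, at 1950 CPM with the other 3 at 1749 to 1771. Serpina1b was low in HFD mouse 143 at 7 days, at 2996 CPM with the others at 4576 to 4804. The same HFD mouse 143 was also lowest for the protease genes F11 (107 CPM) and F2 (1684 CPM) and for Serpind1 (582 CPM). FEN-HFD mouse 61 at 7 days was lowest for Edem2 (44.3 CPM) and F2 (1546 CPM) and highest for Me1 (60.8 CPM). FEN-HFD mouse 66 at 7 days was lowest for Serpinf2 (977 CPM). At 20 weeks, HFD mouse 28 was lowest for Klkb1 (194 CPM) and Tdo2 (1143 CPM), and FEN-HFD mouse 29, with the high share of Rn45s, was lowest for P4hb (1376 CPM) and Ppara (470 CPM).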

How the results depend on the processing

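No member's fold change reversed after a call under any alternative. The number of genes called between the diets at 20 weeks was 242, and it was 1011 by DESeq2, 1128 by limma-voom and 661 in 1 fit of all libraries. For the diets at 7 days it was 13, and 95, 29 and 20 by DESeq2, by limma-voom and with at least 1 count. For the HFD cohorts it was 996 (1764 by DESeq2), for the FEN-HFD cohorts 153 (404 by DESeq2 and 892 by limma-voom) and for the difference between times 4 (117 by DESeq2, 90 by limma-voom and 11 with upper-quartile factors). Members called between the diets at 20 weeks were 2 by DESeq2 and by limma-voom (Serpina1a besides Serpina1e), 7 by DESeq2 for the HFD cohorts, and 3 by DESeq2, 4 by limma-voom and 2 with at least 1 count for the FEN-HFD cohorts. For the difference between times, 1 was called by DESeq2, by limma-voom and with upper-quartile factors. Without each mouse in turn, genes called ran from 36 to 424, 7 to 18, 468 to 938, 57 to 486 and 0 to 14 in the order above, and members called from 0 to 1, 0 to 0, 2 to 4, 1 to 3 and 0 to 1. The causes of these differences were not tested. No paired analysis was possible because no mouse number is shared between groups. The effect of reads shared among the Serpina1 copies on the value of each copy, and on their sum, was not tested.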

Other observations

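Serpina3g and Serpina3f, other genes of the cluster that were chosen after their values were seen, stood apart in the libraries with high Kupffer cell markers. Serpina3g was at 130 CPM in HFD mouse 143 at 7 days and at 50.2 CPM in FEN-HFD mouse 29 at 20 weeks, and at 8.08 to 19.9 CPM in the other 14 mice. Serpina3f was at 53.1 and 18.9 CPM in those mice and at 2.62 to 8.30 CPM in the others. The same mouse 143 had the lowest Serpina1b of its group. The pseudogene Serpina4-ps1 varied widely within every group, from 69.0 to 399 CPM in HFD mice and from 101 to 555 CPM in FEN-HFD mice at 7 days, and from 3.72 to 113 CPM in HFD mice and from 98.3 to 399 CPM in FEN-HFD mice at 20 weeks.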
